A study of Mus musculus with 11 samples.

Results

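The collagen genes were followed through 27 mouse bulk RNA-seq libraries that trace the oviduct and the ovarian surface epithelium (OSE) from tissue to organoid and, for the oviduct, from engineered organoid clones to tumors and tumor-derived organoids. Members were chosen by symbol alone, as rows named Col, a type number, the letter a and a chain number, which gave 44 of the 18305 genes in the table. The assay was CEL-Seq2, which counts the 3′ ends of transcripts, and levels are given as CPM, a count scaled to the size of its library with edgeR's TMM factors. Levels are compared mainly between groups, for a gene or a class. Where genes or classes are set side by side within a library, the shares are of 3′ counts and need not equal shares of transcripts or chains.

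The tissue groups were bulk oviduct (3 libraries) and OSE (3 libraries) from adult female C57BL/6 wild-type mice, and the matching organoid groups were oviductal organoids (3 libraries) and OSE organoids (2 libraries). A further 3 libraries came from oviductal organoids of mice that carry a Cas9-P2A-EGFP cassette at the Rosa26 locus and express both proteins ubiquitously, here called Cas9-GFP organoids. The TBP clones (3 libraries) were made in such organoids by CRISPR editing, with Trp53 and Brca1 among the genes targeted, and were selected with the MDM2 inhibitor Nutlin-3a, and the study describes no clone that lost Brca1 completely. TBP tumors (6 libraries) grew under the skin of female NSG mice, which lack mature lymphocytes but supply their own stroma and vessels, so tumor RNA is a mixture of graft and host. Organoids were then grown back from such tumors under Nutlin-3a, 2 lines with a mesenchymal look (T1-mes and T3-mes, here mes organoids) and 2 with an epithelial look (T2-epi and T4-epi, here epi organoids). Each wild-type line was started from the pooled tissue of several mice. The study traces all the tumor-derived lines to the same original TBP clone. T1-mes and T2-epi came from adjacent tumors, which it pictures on the left and right side of a single mouse. The sources used here do not say whether T3-mes and T4-epi shared a mouse. All organoids were embedded in basement membrane extract, in a medium with the TGF-beta receptor inhibitor A83-01. Tissue RNA was extracted with Trizol and organoid RNA with a column kit, so in every tissue and organoid comparison the extraction and the sample type cannot be told apart.

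Collagens are trimers of alpha chains wound into a triple helix, and each chain has its own gene. The fibrillar types I, III and V form the fibres that give stroma its tensile strength and are made mainly by fibroblasts. Type IV forms the sheet-like network of basement membranes under epithelia and around vessels and muscle, with types VII, XV and XVIII at its edges, while type VI forms beaded filaments between the basement membrane and the fibres and fibril-associated types coat or bridge fibrils. The 44 members were sorted by these roles into 11 fibrillar genes, 6 type IV genes, 3 genes of the basement membrane zone (Col7a1, Col15a1 and Col18a1), 6 type VI genes, 9 fibril-associated genes, 3 genes of short-chain networks (Col8a1, Col8a2 and Col10a1), 4 transmembrane genes (Col13a1, Col17a1, Col23a1 and Col25a1) and 2 others (Col26a1 and Col28a1).

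Promoter sequence is shown for 4 members, namely a type III, a type V and a type VI chain with at most 2 counts in oviductal organoids, at most 1 in TBP clones and high levels in tumors, and a type IV chain with counts in 23 of the 27 libraries. Each line gives the 150 bases before the start site from RefSeq (GRCm38.p6), 5′ to 3′ on the gene's strand, with a searched motif in capitals. The Col3a1 stretch is chr1:45311388-45311537 on the plus strand with TATAAA in capitals, and the Col5a1 stretch is chr2:27886275-27886424 on the plus strand with GGGCGG in capitals. The Col6a3 stretch is chr1:90843972-90844121 on the minus strand and holds no searched motif, and the Col4a6 stretch is chrX:141474077-141474226 on the minus strand with GGGCGG on the opposite strand, which reads CCGCCC here.
Col3a1: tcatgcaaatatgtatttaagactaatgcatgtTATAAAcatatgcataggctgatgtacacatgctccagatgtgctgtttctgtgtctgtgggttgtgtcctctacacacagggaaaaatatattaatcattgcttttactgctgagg
Col5a1: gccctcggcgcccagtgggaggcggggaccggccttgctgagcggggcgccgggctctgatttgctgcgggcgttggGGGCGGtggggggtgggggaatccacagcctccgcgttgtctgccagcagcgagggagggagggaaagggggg
Col6a3: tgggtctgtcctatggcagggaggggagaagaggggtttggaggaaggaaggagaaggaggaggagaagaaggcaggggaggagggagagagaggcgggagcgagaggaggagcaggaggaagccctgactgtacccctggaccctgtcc
Col4a6: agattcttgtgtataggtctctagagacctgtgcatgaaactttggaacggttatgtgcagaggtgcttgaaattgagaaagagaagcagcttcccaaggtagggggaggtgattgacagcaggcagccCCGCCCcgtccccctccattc

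Of the 44 members, 35 had an entry in the promoter table, and the unmatched members were Col1a1, Col2a1, Col4a3, Col5a2, Col9a3, Col12a1, Col14a1, Col22a1 and Col26a1. In the 250 bases before the start site, on either strand, TATAAA stood in 5 of the 35 (Col3a1, Col10a1, Col11a2, Col13a1 and Col17a1) and in 12.4% of all 32851 promoters. CCAAT stood in 13 of the 35 and in 33.8% of all promoters, and GGGCGG in 21 of the 35 and in 32.7% of all. Several members are neighbours in the genome: Col4a1 and Col4a2 lie head to head on chromosome 8 with annotated ends that overlap by 22 bases, Col4a4 and Col4a3 lie head to head on chromosome 1 with 71 bases between them, and Col4a6 and Col4a5 lie head to head on the X chromosome 1308 bases apart.

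Library depth ran from 600579 to 4531767 counts, with the exception of TBP clone 1 at 82239, which held only 20 collagen counts. Trp53, the gene targeted in the clones, stood at 34.5 to 61.0 CPM in Cas9-GFP organoids, at 0 to 5.02 CPM in TBP clones and at 4.37 to 9.22 CPM in the tumor organoids, and at 18.3 to 57.1 CPM in the tumors, which include host cells. A list of 15 fibroblast markers summed to 1691 to 2562 CPM in oviduct tissue, 552 to 753 CPM in OSE tissue and 1637 to 4870 CPM in tumors. In oviductal organoids 10 of the 15 markers had no count and the sum was 40.6 to 68.7 CPM, and in Cas9-GFP organoids 13 of the 15 had no count and the sum was 0 to 6.69 CPM. OSE tissue also carried 9821 to 12050 CPM of granulosa and steroidogenic cell markers, against 69.7 to 282 CPM in oviduct tissue, and its epithelial markers summed to 455 to 548 CPM against 1883 to 2373 CPM. The libraries labelled OSE tissue thus carried markers of ovarian cells other than the surface epithelium. The OSE organoid libraries differed from each other, since a list of 5 oviduct epithelium markers summed to 63.3 CPM in the first and to 3428 CPM in the other, OSE organoids 2, against 70.6 to 120 CPM in OSE tissue and 14887 to 23188 CPM in oviductal organoids. Mesothelial and OSE markers summed to 2249 CPM in the first and 562 CPM in the other, against 560 to 801 CPM in OSE tissue and 392 to 455 CPM in oviductal organoids. Of the 5 oviduct epithelium markers, Pax2 and Dnali1 had no count in either OSE organoid library, and the study itself reports Pax8 in OSE organoids. The library labelled OSE organoids 2 thus carried some markers of oviduct epithelium but not all, and its identity was not tested. Results that rest on it are also given without it. In bulk RNA, fewer cells of a type and less RNA per cell cannot be told apart.

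Collagen took up a share of all counts that differed by orders of magnitude among the groups. In oviduct tissue the 44 genes together made up 0.573% ± 0.165 of all counts (SD, n = 3) and in OSE tissue 0.579% ± 0.142 (SD, n = 3). The share was 0.0156% ± 0.00385 in oviductal organoids, 0.0129% ± 0.00311 in Cas9-GFP organoids and 0.0179% ± 0.00597 in TBP clones (SD, n = 3 each), and 0.0568% and 0.0289% in the OSE organoid libraries. In the tumors it ran from 1.68% to 7.91% with a mean of 4.11% ± 2.41 (SD, n = 6), above every other library. The mes organoids stood at 0.454% and 0.961%, just under and above the range of the tissues, and the epi organoids at 0.0140% and 0.0232%, within the range of the other cultures.

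**Figure D1:**
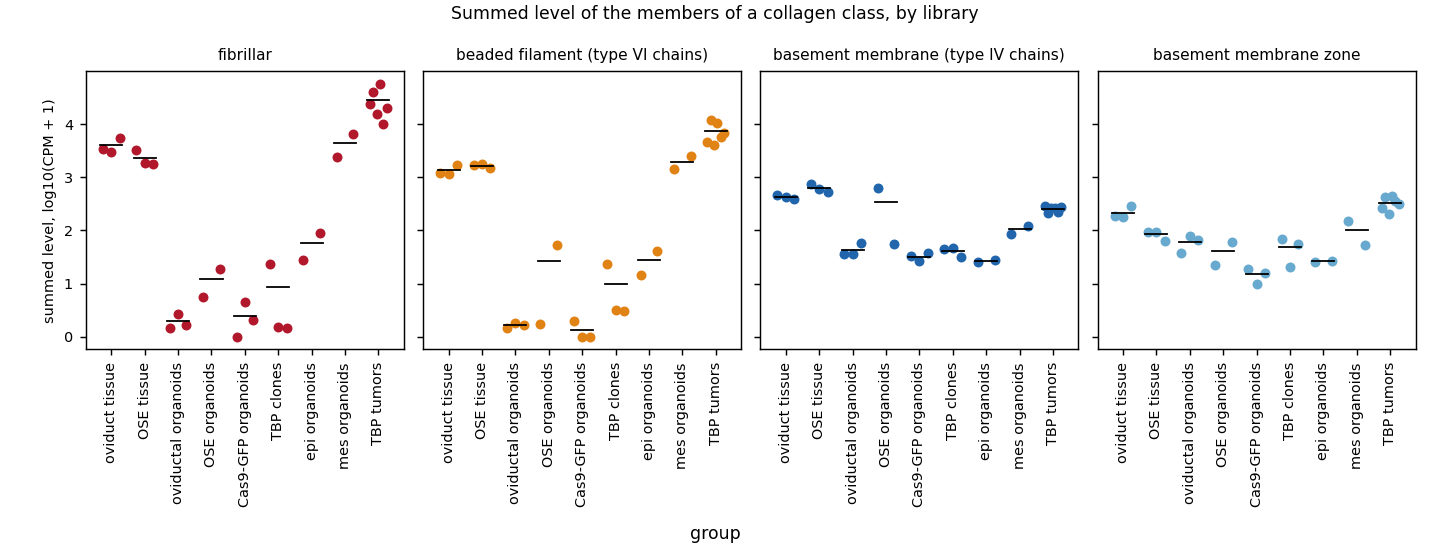
Summed level of the fibrillar, type VI, type IV and basement membrane zone genes (log10 of CPM + 1) by group, with 1 point per library and a line at the group mean. The fibrillar sum lay between 3038 and 5526 CPM in oviduct tissue, at or under 1.69 CPM in oviductal organoids and between 9986 and 57717 CPM in tumors, while the type IV sum lay between 24.7 and 747 CPM in all 27 libraries.

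The classes stood at different levels in culture. The fibrillar sum was 3969 ± 1357 CPM in oviduct tissue, 2275 ± 797 CPM in OSE tissue, 0.942 ± 0.656 CPM in oviductal organoids and 1.51 ± 1.77 CPM in Cas9-GFP organoids (SD, n = 3 each). The type VI sum was 1352 ± 288 CPM in oviduct tissue, 1641 ± 166 CPM in OSE tissue and 0.660 ± 0.185 CPM in oviductal organoids (SD, n = 3 each). The type IV sum, in contrast, was 421 ± 39.0 CPM in oviduct tissue, 42.0 ± 13.0 CPM in oviductal organoids, 31.3 ± 5.23 CPM in Cas9-GFP organoids and 40.2 ± 8.54 CPM in TBP clones (SD, n = 3 each), and no library fell below 24.7 CPM. Fibrillar genes supplied 62.7% ± 4.41 of collagen counts in oviduct tissue and 0.495% ± 0.295 in oviductal organoids, where fibril-associated genes, chiefly Col16a1, supplied 36.4% ± 2.77 and type IV genes 22.8% ± 4.96 (SD, n = 3 each). In tumors 73.7% ± 8.03 of collagen counts were fibrillar and 0.872% ± 0.407 were type IV (SD, n = 6).

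**Figure D2:**
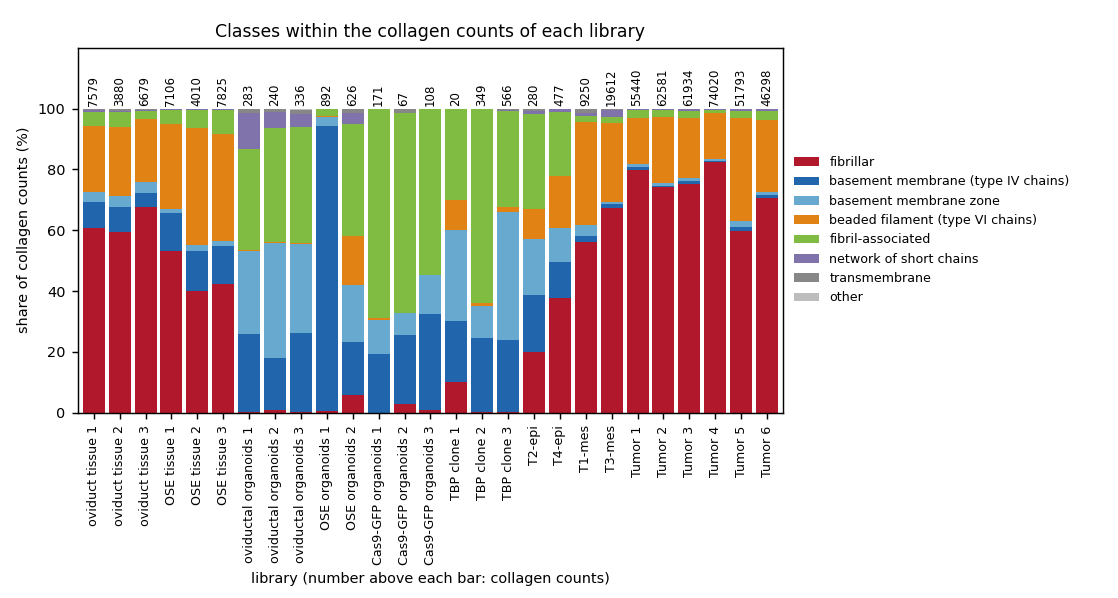
Share of each library's collagen counts (percent, stacked to the total) held by each class, 1 bar per library, with the number of collagen counts above the bar. Fibrillar genes hold 59.5% to 67.7% of the bar in oviduct tissue and 59.7% to 82.4% in tumors, and type IV genes hold 93.5% of the bar of OSE organoids 1 but 17.6% of that of OSE organoids 2.

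Of the 44 members, 37 had a count in oviduct tissue, 39 in OSE tissue, 20 each in oviductal and OSE organoids, 17 in Cas9-GFP organoids, 18 in TBP clones, 30 in mes organoids, 26 in epi organoids and 43 in tumors. Only 3 members had a count in all 27 libraries: Col16a1, which coats fibrils, Col18a1, the source of endostatin, and Col4a5, a chain of the minor type IV networks. At the other end, Col9a1, a cartilage collagen, had counts in Tumor 4 alone (10.4 CPM), and Col2a1, the main cartilage collagen, and Col6a6 each had a count in 2 libraries. The filter on low counts let 29 members enter at least 1 comparison. The other 15 never passed it: Col2a1, Col4a3, Col6a5, Col6a6, Col9a1, Col9a3, Col10a1, Col11a2, Col13a1, Col19a1, Col22a1, Col24a1, Col25a1, Col26a1 and Col28a1. Among these the highest level was that of Col24a1, 40.3 CPM in T3-mes against 0 CPM in T1-mes, and no other exceeded 10.4 CPM in any library.

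**Figure D3:**
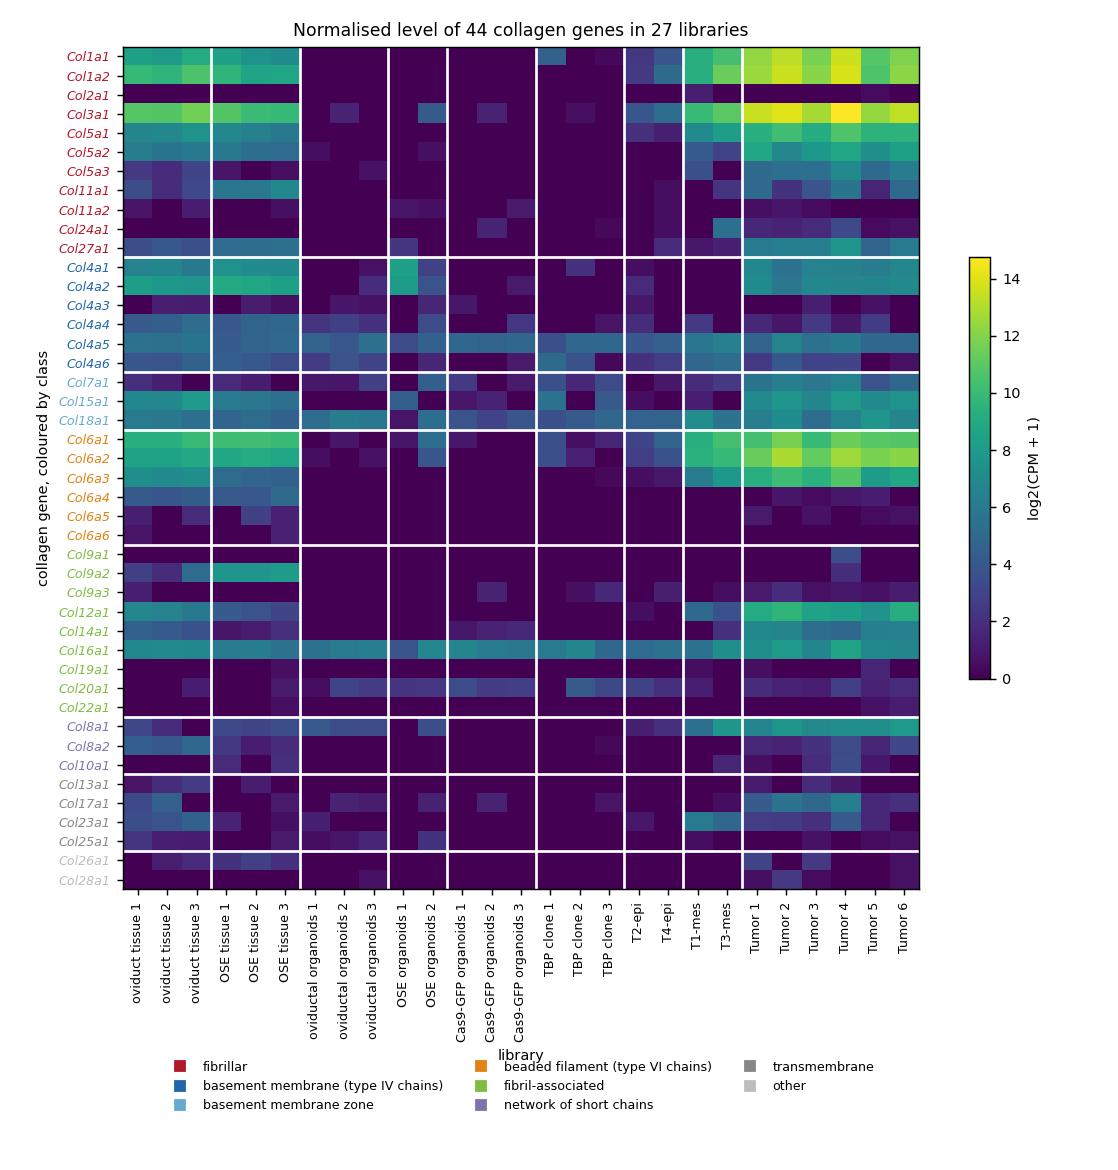
Level of each member (log2 of CPM + 1) in each of the 27 libraries, with rows ordered by class and columns by group. The rows of Col1a1, Col1a2, Col3a1, Col5a1 and Col6a1 to Col6a3 lie at 22.8 to 27479 CPM in every tissue, tumor and mes organoid library and at 0 to 36.5 CPM in the others, whereas Col4a5, Col16a1 and Col18a1 have signal in all 27 columns.

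The first comparison asks how the collagens of the oviduct differ from those of the OSE preparation. Higher in the oviduct were 3 of 4 fibril-associated genes tested, both basement membrane zone genes tested, 3 of 7 fibrillar genes and 1 each of the type VI, type IV and short-chain genes. Lower were Col9a2, Col11a1 and Col27a1, which are known from cartilage, with Col4a1, Col4a2 and Col6a1. By edgeR's quasi-likelihood test at a Benjamini-Hochberg adjusted p under 0.05, 11 of the 23 members tested were higher in the oviduct and 6 were lower, against 26.9% higher and 24.3% lower of all 8787 genes tested. The median log2 fold change was 0.64 over the 23 members and 0.00 over all genes.

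Col6a3, a chain of type VI, had 160, 137 and 164 CPM in the oviduct libraries and 35.5, 26.8 and 22.8 CPM in the OSE libraries. The groups did not overlap, and the log2 fold change was 2.48 ± 0.20 (SE, adjusted p = 9.7e-08, edgeR). The other chains of the same trimer went the other way or did not pass. Col6a1 fell by 0.50 on the log2 scale (SE 0.20, adjusted p = 0.0438, edgeR), in groups that overlapped and with a call kept in 5 of 10 alternative analyses, and Col6a2 had a value of -0.21 ± 0.17 (SE, adjusted p = 0.316, edgeR). Type XII, a fibril-associated collagen of dense connective tissue, behaved like Col6a3: Col12a1 had 111, 93.4 and 61.1 CPM in the oviduct against 17.8, 12.8 and 7.43 CPM, a log2 fold change of 2.91 ± 0.31 (SE, adjusted p = 1.92e-06, edgeR). Col14a1, of the same family, was higher by 3.11 ± 0.46 and Col8a2, a short-chain collagen, by 2.94 ± 0.42 on the log2 scale (SE, edgeR adjusted p = 4.75e-05 and 3.45e-05).

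The classical fibre-forming chains differed less. Col3a1 had 1867, 1807 and 3110 CPM in the oviduct and 1771, 1078 and 943 CPM in the OSE, so that the lowest oviduct library lay just above the highest OSE library. Its log2 fold change was 0.86 ± 0.26 (SE, adjusted p = 0.0118, edgeR) and the call was lost without OSE tissue 2 (adjusted p = 0.0748, edgeR) and without OSE tissue 3 (adjusted p = 0.0857, edgeR). Col1a2 was higher by 1.08 ± 0.29 (SE, adjusted p = 0.0058, edgeR), a call that DESeq2 did not make, and Col1a1 had a value of 0.73 ± 0.30 (SE, adjusted p = 0.0545, edgeR). Col5a1, which helps start fibrils, was higher by 0.64 ± 0.25 (SE, adjusted p = 0.044, edgeR, 6 of 10 alternatives). Col15a1 and Col18a1 of the basement membrane zone were higher by 1.60 ± 0.28 and 0.99 ± 0.25, and Col16a1 by 1.06 ± 0.20 (SE, edgeR adjusted p = 0.000202, 0.00347 and 0.000445).

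Lower in the oviduct were Col9a2 of type IX, Col11a1 of type XI and Col27a1 of type XXVII, which are types known from cartilage. The other chains of types IX and XI (Col9a1, Col9a3 and Col11a2) and the main cartilage chain Col2a1 were too low to be tested. Col9a2 had 5.80, 2.63 and 36.7 CPM in the oviduct libraries and 203, 205 and 269 CPM in the OSE libraries, a log2 fold change of -3.99 ± 0.44 (SE, adjusted p = 2.36e-06, edgeR). Col11a1 had 10.2, 2.63 and 8.55 CPM against 55.0, 58.2 and 117 CPM, a change of -3.32 ± 0.39, and Col27a1 fell by 1.64 with an SE of 0.27 (edgeR adjusted p = 4.96e-06 and 0.000146). The OSE libraries that were high in these genes were also the ones that carried the granulosa and steroidogenic markers, 10 of 10 of which were lower in the oviduct; their part in the result was not tested. Col4a1 and Col4a2, the chains of the ubiquitous type IV trimer, were lower by 0.76 (SE 0.21) and 0.72 (SE 0.20) on the log2 scale (edgeR adjusted p = 0.00709 and 0.00647), whereas Col4a5 was higher by 0.89 ± 0.24 (SE, adjusted p = 0.00682, edgeR). Col4a4, Col4a6, Col5a2 and Col6a4 did not pass the test. Fibroblast markers moved with the fibre-forming genes (7 of 10 tested higher in the oviduct, 1 lower), as did smooth muscle markers (9 of 9 higher), and their part was not tested.

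The second comparison asks which collagens remain when oviduct epithelium is grown as organoids. All 6 fibrillar and all 4 type VI genes tested were at or near 0 in organoids, while Col16a1, Col18a1, Col4a5 and Col4a6 had 5.25 to 79.4 CPM there. Of 23 members tested, 19 were lower in organoids and 0 higher, against 24.2% lower and 18.7% higher of all 9477 genes tested, and only 5 of the 23 reached 10 counts in any library of the lower group, so that the others entered the test through the tissue libraries. DESeq2 also called 0 higher, and 1 member had an unadjusted p under 0.05 in that direction. The median over the 23 was -7.84 on the log2 scale, or -7.15 with the 10 members at 0 counts set to their bound, against -0.02 over all genes.

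Both chains of type I were undetected in all 3 oviductal organoid libraries, where a count of 0 allows up to 0.625 CPM over the group at 3 counts. Col1a2, at 942, 786 and 1606 CPM in the tissue, was therefore at least 1779-fold lower, and Col1a1 at least 600-fold lower. Col3a1 had 2 counts in organoids, and the tissue held 5272 times as much (95% counting interval 1459 to 43544). The other fibrillar and fibril-associated members tested that were at 0 counts were Col5a1 (at least 215-fold lower), Col12a1 (at least 142-fold), Col14a1 (at least 27.7-fold) and Col27a1 (at least 19.7-fold). In the type VI class, Col6a3 was at least 246-fold lower, Col6a1 had 1 count and Col6a2 had 2 counts, from tissue levels of 643 to 1015 CPM for Col6a1 and 363 to 483 CPM for Col6a2. Col15a1, at 118, 117 and 241 CPM in the tissue, was at least 254-fold lower, and it belongs to the same class as Col18a1, which did not pass the test.

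Basement membrane chains split. Col4a1 had 1 count and Col4a2 had 4 counts in the organoids, all of them in oviductal organoids 3, against tissue levels of 62.3 to 109 CPM and 205 to 292 CPM. The log2 fold change of Col4a2 was -8.06 ± 0.49 (SE, adjusted p = 2.82e-07, edgeR). Col4a5 had 25.3, 15.2 and 42.7 CPM in the organoids and 44.3, 42.1 and 51.3 CPM in the tissue, with overlapping groups and a value of -0.73 ± 0.33 (SE, adjusted p = 0.0968, edgeR). Col4a6, its partner in the alpha5-alpha6 network, had 5.25, 12.7 and 7.22 CPM against 14.5, 13.2 and 23.2 CPM, a value of -1.07 ± 0.44 (SE, adjusted p = 0.0664, edgeR). Col4a4 fell by 2.55 on the log2 scale (SE 0.46, adjusted p = 0.000736, edgeR).

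The members that stayed were few. Col18a1 had 35.8, 76.2 and 58.4 CPM in organoids and 63.1, 57.9 and 41.5 CPM in tissue, a value of 0.03 ± 0.29 (SE, adjusted p = 0.955, edgeR), and the ranges overlapped. Col16a1 had 44.3, 69.4 and 79.4 CPM against 118, 129 and 116 CPM, a fall of 0.93 on the log2 scale (SE 0.24, adjusted p = 0.00718, edgeR). Col8a1, a short-chain collagen of vessel and corneal membranes, had 16.2, 10.2 and 9.19 CPM against 7.98, 2.63 and 0 CPM, a value of 1.5 ± 0.62 that did not pass (SE, adjusted p = 0.0713, edgeR). All 11 fibroblast markers tested, and all 9 smooth muscle markers tested, were lower in the organoids along with the fibrillar and type VI genes, and their part in the result was not tested.

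In OSE organoids the fibrillar and type VI chains tested were lower likewise, but the 2 libraries stood far apart in type IV. Of 22 members tested, 14 were lower than in OSE tissue and 0 higher, against 18.6% lower and 14.5% higher of all 10232 genes tested, and 0 were higher by DESeq2 or at an unadjusted p under 0.05. Only 11 of the 22 reached 10 counts in any library of the lower group, so that the others entered the test through the group where they were higher. At 0 counts in both libraries were Col1a2 (at least 585-fold lower), Col1a1 (at least 250-fold), Col9a2 (at least 247-fold), Col5a1 (at least 96.0-fold), Col11a1 (at least 83.9-fold), Col6a3 (at least 31.1-fold), Col6a4 (at least 23.7-fold) and Col12a1 (at least 13.9-fold). Col3a1 fell by 7.05 (SE 1.20), Col6a1 by 5.80 (SE 1.15) and Col6a2 by 5.86 (SE 1.02) on the log2 scale (edgeR adjusted p = 0.0055, 0.00929 and 0.00597), all with counts almost only in OSE organoids 2. All 11 fibroblast markers and all 10 granulosa and steroidogenic markers tested were lower in the organoids as well, and all 9 epithelial markers tested were higher, so that Col9a2 and Col11a1, high in OSE tissue, fell beside the granulosa markers, and the part of these lists was not tested. Without OSE organoids 2, which carried some oviduct markers, 1 of 22 members tested had a positive value, Col4a1 at 1.19 on the log2 scale. The median was then -7.96 over the members and -0.16 over all genes. Without OSE organoids 1, 4 of 23 had a positive value, the largest being Col7a1 at 4.25 and Col16a1 at 1.01. The medians were then -6.13 and -0.09. In both analyses the 1 remaining organoid library was assumed to vary like the tissue libraries.

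For Col4a1 the first OSE organoid library had 345 CPM and the other had 6.08 CPM, on either side of the tissue range of 132 to 184 CPM. The log2 fold change was 0.20 ± 1.13 (SE, adjusted p = 0.91, edgeR), and without OSE organoids 1 it was -4.55. Col4a2 showed the same split, with 282 and 12.7 CPM against 317 to 509 CPM, and a value of -1.50 ± 1.01 (SE, adjusted p = 0.298, edgeR). The split ran the other way in Col16a1 (13.7 and 113 CPM) and Col18a1 (0.763 and 38.5 CPM), and the library with the higher values of these was the one with 3428 CPM of oviduct epithelium markers. Type IV genes held 834 of the 892 collagen counts of OSE organoids 1, or 93.5% (exact binomial 95% interval 91.7 to 95.0), and 17.6% (14.7 to 20.8) of those of OSE organoids 2. These intervals cover counting error only, and the study left 1 more OSE line out of its analysis because of contamination.

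The oviductal and OSE organoids were then compared with each other. Of the 6 members tested (Col4a2, Col4a5, Col4a6, Col8a1, Col16a1 and Col18a1) none was called in either direction by edgeR, against 0.0864% higher and 0% lower of all 9257 genes, with 1 member higher and 1 lower at an unadjusted p under 0.05 and 0 higher and 2 lower by DESeq2. The value for Col4a2 was -7.28 ± 1.57 (SE, adjusted p = 0.188, edgeR), with 0, 0 and 2.62 CPM in the oviductal organoids. The values depended on which OSE organoid library was kept, and each of these analyses had only 1 library on the OSE side. Without OSE organoids 2, 5 of 8 members tested had a positive value. Col8a1, Col4a6, Col18a1, Col16a1 and Col4a5 stood at 7.22, 6.67, 6.09, 2.25 and 1.52 on the log2 scale, and Col4a1, Col4a2 and Col15a1 at -10.18, -8.23 and -7.96. OSE organoids 1 had 0 counts of Col8a1 and Col4a6, and the oviductal organoids had 0 of Col15a1, so the sizes of their values are not estimates. The values of Col18a1 and Col4a1 rest on 1 count in the lower group. Without OSE organoids 1, 4 of 12 had a positive value, and Col6a1 and Col6a2 stood at -7.00 and -4.93.

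The change from tissue to organoid was also compared between the origins by an interaction term. Of 26 members tested, 5 passed with a stronger fall in the oviduct and 0 with a stronger fall in the OSE, against 6.68% and 5% of all 11458 genes, with 0 in the latter direction by DESeq2 and 1 at an unadjusted p under 0.05. Col4a1 differed by -8.29 ± 1.88 (SE, adjusted p = 0.0138, edgeR) and Col4a2 by -6.44 ± 1.44 (SE, adjusted p = 0.0127, edgeR), and both were called in 14 of 14 alternatives. Col15a1, Col6a1 and Col3a1 were called with all libraries but in only 5, 4 and 4 of the 14 alternatives. Without OSE organoids 2, which carried some oviduct markers, 13 of 28 members tested had a positive value. Col4a1, Col15a1 and Col4a2 stood at -9.27, -9.26 and -7.40 and Col8a1, Col4a6 and Col18a1 at 8.06, 6.22 and 5.16 on the log2 scale. With 0 counts of Col15a1 in oviductal organoids and 0 of Col8a1 and Col4a6 in OSE organoids 1, the sizes of their values are not estimates. Those of Col18a1 and Col4a1 rest on 1 count in an organoid group. Without OSE organoids 1, 7 of 29 had a positive value, and Col4a1 and Col4a2 stood at -3.54 and -3.00. Each of these analyses kept only 1 OSE organoid library.

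The comparison of TBP clones with Cas9-GFP organoids asks what editing does before any tumor forms, and no collagen gene was called in it. Only Col4a5, Col16a1 and Col18a1 passed the filter in TBP clones and Cas9-GFP organoids, and 0 of the 3 were called by edgeR, 0 by DESeq2 and 0 at an unadjusted p under 0.05, against 0.389% higher and 0.428% lower of all 7708 genes. Col16a1 had 67, 102 and 30.6 CPM in the clones and 102, 67.3 and 55.6 CPM in the Cas9-GFP organoids, a value of -0.19 ± 0.46 (SE, adjusted p = 0.935, edgeR). Col18a1 had 11.2, 17.1 and 28.5 CPM against 12.4, 6.91 and 13.9 CPM, a value of 0.93 ± 0.49 (SE, adjusted p = 0.577, edgeR). Col4a5 had 11.2, 30.0 and 29.4 CPM against 30.6, 25.9 and 29.9 CPM. Col1a2, Col5a1 and Col12a1 had no count in either group, and Col1a1 had 2 counts in TBP clone 1 and 1 in TBP clone 3. With 82239 counts in TBP clone 1, 1 count there is worth 11.2 CPM.

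Tumors grown from such clones held most collagens at far higher levels. Of 24 members tested against the clones, 20 were higher and 1 was lower, against 20.1% higher and 11.7% lower of all 10473 genes tested. The median was 10.22 on the log2 scale, or 7.45 with the 10 members at 0 counts in clones set to their bound, and the median over all genes was 0.16 (0.29 with RLE scaling). Only 6 of the 24 reached 10 counts in any clone library.

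Col1a2 had 1634 to 14912 CPM in the 6 tumors (median 5214) and no count in any clone, at least 15340-fold higher. Col3a1 had 5540 to 27479 CPM (median 11142) and 1 count in all clones together. Col5a1 was at least 1960-fold higher, Col12a1 at least 974-fold, Col5a2 at least 594-fold and Col8a1 at least 342-fold, each with 0 counts in the clones and more than 100 CPM in every tumor. The type VI chains rose as well, with log2 fold changes of 10.21 ± 0.85 for Col6a1, 12.18 ± 1.22 for Col6a2 and 11.89 ± 1.13 for Col6a3 (SE, edgeR adjusted p = 7.82e-05, 0.000121 and 9.25e-05).

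In the type IV and basement membrane zone classes 5 of 7 members tested were higher and 2 were not called. Col4a2, at 55.9 to 136 CPM in tumors, was at least 229-fold higher than in the clones, and Col4a1 was higher by 6.13 ± 0.90 on the log2 scale (SE, adjusted p = 0.000684, edgeR). Col15a1, Col7a1 (the anchoring fibril collagen) and Col18a1 were higher by 3.79 ± 0.95, 3.02 ± 0.78 and 2.33 ± 0.53 (SE, edgeR adjusted p = 0.0113, 0.0129 and 0.0072). Col4a5 and Col4a6 had values of 0.78 ± 0.49 and -0.65 ± 1.36 (SE, edgeR adjusted p = 0.243 and 0.759), and Col16a1, present throughout, had 1.48 ± 0.56 (SE, adjusted p = 0.0645, edgeR). The 1 member that fell was Col20a1, a little-studied fibril-associated chain, by 2.16 (SE 0.58, adjusted p = 0.0157, edgeR), a call that was lost with DESeq2 and without TBP clone 2. All 14 fibroblast markers tested and 10 of 11 myeloid markers tested rose in the same comparison, which sets a mixed tumor against pure culture, and their part in the collagen result was not tested. In the clones 13 of the 15 fibroblast and 8 of the 11 myeloid markers had 3 counts or fewer in every library, so that most entered the test through the tumors.

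Set against oviduct tissue, which has a stroma of its own, the tumors differed by class. Most fibrillar and type VI genes tested were higher, and no type IV gene was. This comparison shares its 6 tumor libraries with the last and its 3 tissue libraries with the organoid comparison. Of 27 members tested, 14 were higher in tumors and 4 lower, against 23.7% higher and 22.4% lower of all 10827 genes tested. In the fibrillar class 7 of 8 tested were higher with a median of 2.71, and in the type IV class 0 of 5 were higher and 2 were lower with a median of -1.21, on the log2 scale. The median over the 27 was 1.55 and over all genes 0.08.

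Col1a1 had 1847 to 12830 CPM in the tumors (median 4535) and 331, 257 and 536 CPM in the oviduct, a log2 fold change of 4.02 ± 0.68 (SE, adjusted p = 0.00107, edgeR). The lowest tumor stood well above the highest tissue library. Its partner Col1a2 had 1634 to 14912 CPM against 786 to 1606 CPM, a smaller change of 2.67 ± 0.67 (SE, adjusted p = 0.00874, edgeR), and Tumor 5 lay just above oviduct tissue 3. Col3a1 rose by 2.51 ± 0.53, Col5a1 by 2.75 ± 0.42, Col5a2 by 2.13 ± 0.45 and Col5a3 by 3.55 ± 0.66 (SE, edgeR adjusted p = 0.00373, 0.000543, 0.0037 and 0.00171). Col27a1 rose by 2.83 ± 0.64 (SE, adjusted p = 0.00516, edgeR). Col11a1, whose other role is in cartilage fibrils, had 1.94 to 51.1 CPM in tumors and did not pass the test.

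Among type VI genes, Col6a2 had 2394 to 7517 CPM in tumors (median 3973) and 363, 372 and 483 CPM in the oviduct, a change of 3.40 ± 0.43 (SE, adjusted p = 0.000189, edgeR). Col6a3 rose by 2.39 ± 0.56 (SE, adjusted p = 0.00646, edgeR). Col6a1 rose by 1.35 ± 0.38 (SE, adjusted p = 0.0145, edgeR) in groups that overlapped at Tumor 3 (1012 CPM) and oviduct tissue 3 (1015 CPM), a call lost without oviduct tissue 1 or 2, with adjusted p-values up to 0.069. Col6a4 went the other way, from 14.5 to 19.6 CPM in the oviduct to 0 to 1.29 CPM in tumors, a fall of 4.74 (SE 0.57, adjusted p = 0.000146, edgeR).

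Short-chain collagens split too. Col8a1 had 101 to 239 CPM in tumors and 7.98, 2.63 and 0 CPM in the oviduct, the largest rise of the 27 members tested at 5.26 ± 0.63 (SE, adjusted p = 0.000141, edgeR), while Col8a2 fell by 2.38 (SE 0.53, adjusted p = 0.00493, edgeR). Col7a1 rose by 4.93 ± 0.90, Col12a1 by 2.33 ± 0.47 and Col14a1 by 2.07 ± 0.48 (SE, edgeR adjusted p = 0.00155, 0.00285 and 0.00587).

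No type IV chain was called higher. Col4a1 had 47.2 to 116 CPM in tumors (median 90.4) and 91.4, 109 and 62.3 CPM in the oviduct, a value of -0.03 ± 0.29 (SE, adjusted p = 0.948, edgeR). Col4a2 had 55.9 to 136 CPM against 292, 236 and 205 CPM, a fall of 1.21 with no overlap (SE 0.25, adjusted p = 0.0035, edgeR), and Col4a4 fell by 3.23 (SE 0.65, adjusted p = 0.00278, edgeR). Col15a1, Col16a1, Col17a1, Col18a1, Col23a1, Col4a5 and Col4a6 did not pass. Fibroblast markers were mixed in this comparison, with 5 of 14 tested higher and 1 lower, while 11 of 11 myeloid markers were higher and 8 of 9 smooth muscle markers lower, with smooth muscle sums of 234 to 1196 CPM in tumors and 5842 to 7394 CPM in oviduct. Their part in the collagen differences was not tested.

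**Figure D4:**
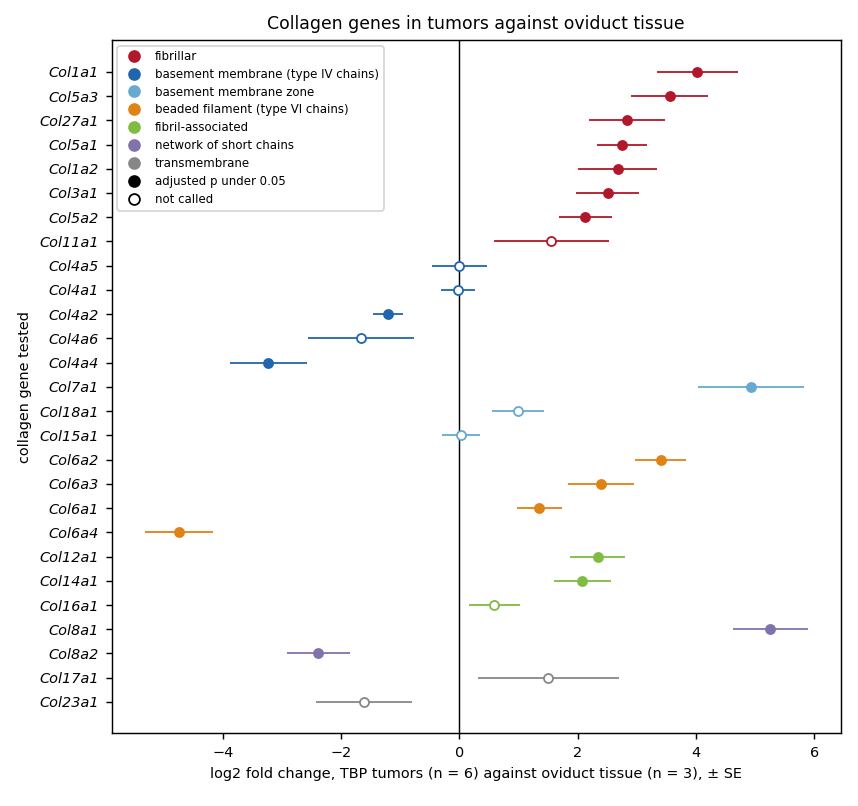
Log2 fold change of TBP tumors (n = 6) against oviduct tissue (n = 3) for the 27 members tested, grouped and coloured by class, with bars of 1 SE and filled points for an adjusted p under 0.05. In the fibrillar class 7 of 8 points are filled and right of 0, and in the type IV class the filled points, Col4a2 and Col4a4, lie left of 0.

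Chains that share a trimer, such as those of types I and VI, had unequal fold changes, and the count ratio of 6 pairs within a library, which does not depend on scaling, was compared between tumors and oviduct. In 5 of the pairs the chains share a trimer, and the other sets the homotrimer chain Col3a1 against Col1a2. The ratio of Col1a1 to Col1a2 was 0.327, 0.334 and 0.351 in the oviduct and 0.803 to 1.13 in the 6 tumors, with 0.348 to 0.489 in OSE tissue, 1.07 in T1-mes and 0.497 in T3-mes. Col4a1 to Col4a2 was 0.304 to 0.464 in the oviduct and 0.696 to 0.855 in tumors. Col6a1 to Col6a2 turned over, from 1.73 to 2.10 in the oviduct (2.22 to 2.48 in OSE tissue) to 0.402 to 0.550 in tumors. Col6a3 to Col6a2 went from 0.339 to 0.440 in the oviduct to 0.0774 to 0.294 in tumors. For these 4 pairs the groups did not overlap, and a two-sided exact permutation test of the log2 ratio gave p = 0.0238 each, the smallest that 6 against 3 libraries allow, or 0.0357 adjusted over the 6 pairs compared. Col3a1 to Col1a2 (adjusted p = 0.833, exact permutation) and Col5a2 to Col5a1 (adjusted p = 0.371, exact permutation) did not pass. Because only 3′ ends were counted, a ratio of 1 does not mean equal numbers of chains, and a shift in the use of transcript ends was not tested.

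**Figure D5:**
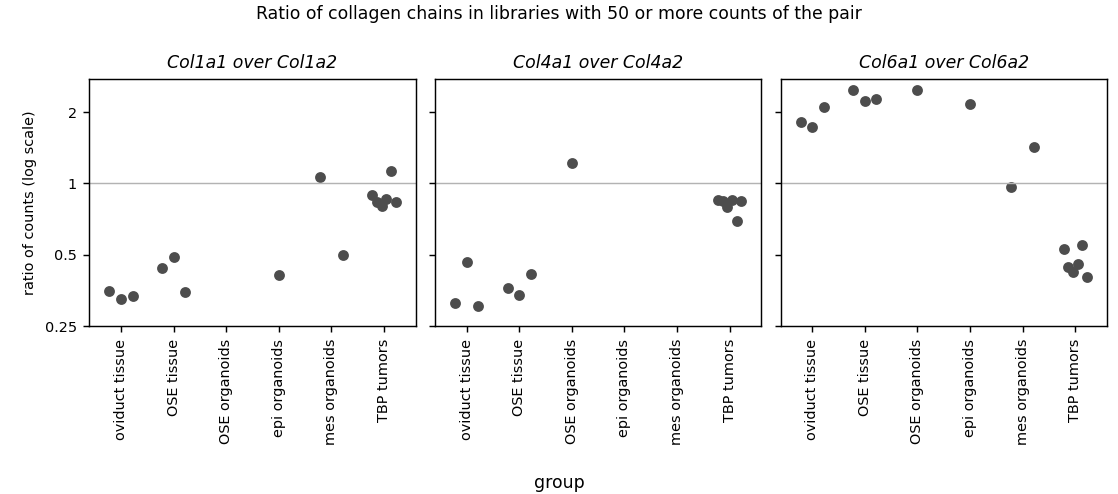
Count ratio of collagen chain pairs (log axis) in each library with at least 50 counts for the pair, by group, 1 point per library. The 6 tumors lie above the 3 oviduct libraries in Col1a1 over Col1a2 and in Col4a1 over Col4a2, and below them in Col6a1 over Col6a2.

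The tumor-derived organoids divided by type. Col1a1, Col1a2, Col3a1, Col5a1 and Col6a1 to Col6a3 had 72.0 to 2686 CPM in mes organoids and 0.475 to 35.4 CPM in epi organoids, whereas Col5a2 had 17.8 and 7.28 CPM in mes, Col5a3 10.9 and 0 CPM, and the other type VI genes no count. Of 15 members tested, 7 were higher in mes and 0 lower, against 1% higher and 0.123% lower of all 9775 genes tested. The median was 6.21 on the log2 scale over the 15 and 0.02 over all genes, and 9 of the 15 reached 10 counts in a library of the lower group. Each group had 2 libraries, so leaving out any 1 left only 1 library in a group. The number of members called then changed, and only the directions of the values are given here. Without T2-epi 17 of 17 members tested had a positive value, and without T4-epi 17 of 19. Without T1-mes it was 16 of 17, and without T3-mes 17 of 18. With T1-mes and T2-epi as a pair and T3-mes and T4-epi as the other, 10 were higher and 0 lower, against 212 higher and 28 lower of all 9775 genes. The members gained were Col1a2 at 6.63, Col12a1 at 6.26 and Col8a1 at 5.71 on the log2 scale (edgeR adjusted p = 0.00795, 0.0301 and 0.0117).

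Col1a1 had 640 CPM in T1-mes, 1334 CPM in T3-mes, 4.27 CPM in T2-epi and 13.6 CPM in T4-epi, a log2 fold change of 6.79 ± 0.78 (SE, adjusted p = 0.0267, edgeR). Col3a1 had 962 and 2031 CPM against 14.2 and 35.4 CPM, a change of 5.92 ± 0.71 (SE, adjusted p = 0.0276, edgeR). Col1a2 had 600 and 2686 CPM against 4.75 and 33.0 CPM, with a value of 6.46 ± 1.24 that did not pass (SE, adjusted p = 0.0818, edgeR). Col5a1 rose by 6.48 ± 0.71 (SE, adjusted p = 0.0236, edgeR), from 3.32 and 1.46 CPM in epi to 131 and 304 CPM in mes.

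All of Col6a1, Col6a2 and Col6a3 were called, at 5.91 ± 0.80, 6.51 ± 0.56 and 7.63 ± 0.91 (SE, edgeR adjusted p = 0.0373, 0.0236 and 0.0276), as was the transmembrane Col23a1 at 6.5 ± 0.95 (SE, adjusted p = 0.0456, edgeR). Col23a1 had 66.1 and 31.0 CPM in mes and 0.95 and 0 CPM in epi, and no tumor library exceeded 18.0 CPM.

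The basement membrane class looked different from that of the tumors. Col4a1 and Col4a2 had 0 counts in both mes libraries, which allows up to 0.705 CPM over the group, and 1 and 5 counts in the epi libraries. Col4a5 had 53.3 and 83.9 CPM in mes against 14.7 and 21.8 CPM in epi, and Col4a6 had 28.2 and 37.8 CPM against 3.32 and 5.34 CPM. These did not overlap but did not pass the test, with 1.91 ± 0.45 and 2.92 ± 0.52 on the log2 scale (SE, edgeR adjusted p = 0.127 and 0.0732). Fibroblast markers moved with the fibrillar and type VI genes called (6 of 7 tested higher in mes, 0 lower, with sums of 1394 and 2407 CPM against 13.3 and 34.5 CPM), while the epithelial list stood at 402 to 3917 CPM in mes and 5358 to 5973 CPM in epi, and the part of each was not tested. The sums of the fibroblast list held the genes Dcn and Lum, which are described again with the cross-linking genes.

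Genes that fold, trim and bind collagen were read from 3 lists. Of 22 folding and modification genes, 11 of 19 tested were higher in tumors than in clones and 1 was lower, and 10 of 19 were higher than in the oviduct and 2 lower, against 20.1% higher and 11.7% lower of all genes in the former comparison and 23.7% and 22.4% in the latter. Serpinh1, the collagen chaperone HSP47, differed among the cultures. It had 109 to 144 CPM in oviduct tissue, 72.8 to 101 CPM in oviductal organoids where fibrillar counts were near 0, 15.5 to 29.9 CPM in Cas9-GFP organoids and 0 to 3.88 CPM in TBP clones, a fall of 3.23 from Cas9-GFP organoids to clones (SE 0.61, adjusted p = 0.0321, edgeR). It had 190 to 743 CPM in tumors, 7.36 ± 0.79 above the clones (SE, adjusted p = 0.000163, edgeR), and 179 and 309 CPM in mes organoids, 5.14 ± 0.66 above the epi organoids (SE, adjusted p = 0.0315, edgeR). The prolyl 4-hydroxylase subunit P4ha2 rose by 2.34 ± 0.42 in the clones (SE, adjusted p = 0.0266, edgeR). That call was lost when any 1 Cas9-GFP library was left out, since 0 genes of the whole table were then called higher in the clones. Rcn3, an endoplasmic reticulum protein, and Fkbp10, a procollagen chaperone, had no count in oviductal or Cas9-GFP organoids and fell in both tissue-to-organoid comparisons. In the oviduct against the OSE, 11 of 18 tested were lower and 2 higher, against 24.3% and 26.9% of all genes, with Colgalt2 at -3.30 ± 0.48 and the lysyl hydroxylase Plod2 at -2.79 ± 0.23 (SE, edgeR adjusted p = 3.74e-05 and 1.29e-07).

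Of 18 genes that process or cross-link collagen, 13 of 14 tested were higher in tumors than in clones and 10 of 14 higher than in the oviduct, with 1 and 0 lower, against the same shares of all genes, 20.1% and 23.7% higher. In the clones 12 of the 18 had 3 counts or fewer in every library, so that most of the 14 entered that test through the tumors. Those with the largest fitted values against the oviduct were the procollagen peptidase Adamts14 and the fibril-binding Fmod. Adamts14 had no count in oviduct tissue, so the size of its rise is not an estimate (adjusted p = 0.00596, edgeR). Fmod was higher by 4.90 ± 1.60 (SE, adjusted p = 0.0295, edgeR). In oviductal organoids 7 of 9 tested were lower than in tissue and 1 higher, and in OSE organoids 7 of 9 were lower and 0 higher, against 24.2% and 18.6% of all genes lower. The procollagen peptidase Adamts2 fell by 2.14 from OSE to oviduct tissue (SE 0.16, adjusted p = 5.57e-08, edgeR), while the small proteoglycans Dcn and Lum, which also stand in the fibroblast list, were higher by 3.07 ± 0.26 and 2.16 ± 0.31 (SE, edgeR adjusted p = 1.44e-07 and 3.3e-05). In mes organoids 3 of 12 were higher than in epi organoids, against 1% of all genes, namely Lum, Dcn and Sparc.

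Of the 9 collagen receptors in the third list, the discoidin receptors went different ways. Ddr1, the discoidin receptor of epithelia, had 244 to 354 CPM in oviduct tissue and 215 to 302 CPM in oviductal organoids, and in OSE organoids it was 2.35 ± 0.25 above OSE tissue (SE, adjusted p = 0.00113, edgeR). Ddr2, the receptor of mesenchymal cells, changed by -2.50 ± 0.34 in the oviductal and -6.31 ± 1.08 in the OSE organoids, and had 107 and 156 CPM in mes organoids against 0.95 and 0 CPM in epi organoids, a rise of 7.94 ± 0.81 (SE, edgeR adjusted p = 9.05e-05, 0.00802 and 0.0236). In tumors Itga11, a fibroblast collagen integrin, and Lair1, a collagen-binding receptor of immune cells, were higher than in the oviduct by 4.67 ± 1.25 and 2.55 ± 0.71, and Ddr1 was lower by 1.58 (SE 0.40, edgeR adjusted p = 0.012, 0.0149 and 0.00878). Over the list, 4 of 6 tested were higher in tumors than in clones and 0 lower, and 3 of 7 were higher than in the oviduct and 1 lower, against 20.1% and 23.7% of all genes higher.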

How the data were processed

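RNA of 27 mouse libraries was read from the deposited table of raw counts per gene, which the authors made from CEL-Seq2 reads (75-bp paired-end, NextSeq500) aligned with BWA to GRCm38 and counted by strand without collapsing molecular identifiers. The BWA version is not given in the sources used here. The authors then used DESeq2 1.18.0, which is not in this table. A spike-in row with 1 count was left out. Groups came from the sample labels. All 44 members matched the annotation, and 5 of them had under 10 counts in all libraries together.

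Each comparison was fitted over all genes with edgeR 4.0.16 in R 4.3.3 (TMM factors, filterByExpr, quasi-likelihood F-test, Benjamini-Hochberg adjustment over all genes tested, threshold 0.05). The SE of a log2 fold change was its size divided by the square root of F. Displayed CPM used TMM factors over all 27 libraries. A fold against a group at 0 is a bound with 3 counts over that group, and a ratio against 1 to 3 counts carries an exact 95% counting interval. Intervals and floors cover counting error only, since reads were not collapsed to molecules. Chain ratios were compared with exact permutation tests in Python 3.11.15 (scipy 1.17.1). Scripts were tested on simulated data with 200 changed genes. Alternatives were DESeq2 1.42.0, RLE factors, no filter, 1 fit of all 27 libraries, the replicate number as a block, and leaving out each library.

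The members, classes and lists were chosen with earlier results of these data known. The text names up to 10 called members per direction by fold size, Col1a1, Col1a2, Col3a1, Col4a1, Col4a2 and Col6a1 to Col6a3 in every comparison, members with a group mean of 50 CPM or more, and up to 5 called genes of each pathway list. Replicate pairs were compared for identical libraries (33 pairs, lowest chi-square per degree of freedom 2.53), and none was counted as 1 sample. The study describes the tissue samples, organoid lines and tumors as independent, and traces the tumor-derived organoid lines to 1 original TBP clone. Apart from T1-mes and T2-epi, which it pictures in a single mouse, neither it nor the labels tie libraries to animals. It describes a pair of independent clones for each combination of mutations, fewer than the TBP clone libraries, so these need not all be independent. The p-values therefore measure the spread between these libraries. Promoter sequences are RefSeq's for GRCm38.p6.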

Additional observations from a re-analysis of the deposited data

Results flagged for a closer look

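The change from tissue to organoid differed between the oviduct and the OSE, by the interaction term over 11 libraries (edgeR), in 5 members: Col4a1 by -8.29 on the log2 scale (adjusted p = 0.0138), Col15a1 by -8.17 (adjusted p = 0.0293), Col4a2 by -6.44 (adjusted p = 0.0127), Col6a1 by -5.48 (adjusted p = 0.0335) and Col3a1 by -5.00 (adjusted p = 0.0396). A negative value is a stronger fall in the oviduct. Col15a1 had 0 counts in the oviductal organoids, so the size of its value is not an estimate. For Col4a1, Col4a2 and Col15a1 most OSE organoid counts were in OSE organoids 1 (345, 282 and 20.6 CPM, against 6.08, 12.7 and 0 CPM in OSE organoids 2), and for Col6a1 and Col3a1 they were in OSE organoids 2 (36.5 and 17.2 CPM, against 0.763 and 0 CPM). OSE organoids 2 also held 3428 CPM of oviduct epithelium markers and OSE organoids 1 held 63.3 CPM. Without OSE organoids 2 the Col3a1 value was 1.60 and that of Col6a2, which had not passed, was 2.66. OSE organoids 1 had 0 counts of both genes, so the sizes of these values are not estimates.

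By CPM, Tumor 4 stood apart from the other 5 tumors in 2 members. Col27a1, a fibrillar chain, had 216 CPM there and 27.1 to 80.4 CPM in the others, with a gap of 0.717 of the whole range. Col20a1 had 5.68 CPM there and 1.36 to 2.73 CPM in the others, with a gap of 0.682, but only 6 counts against 2 to 5. Its gap thus rests on few counts in the shallowest tumor library, at 936348 counts in all. For 6 samples the critical value of the gap is 0.625. Chance passes that value in about 1 of 20 groups, and 33 were examined. Tumor 4 was also the only library with a count of Col9a1 (10.4 CPM) and had the highest share of collagen counts, 7.91%.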

How the results depend on the processing

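Of the values of single members under the alternatives, 1117 kept their direction and side of the threshold, 67 lost the call, 18 gained one and 7 turned over, and of the counts outside the leave-one-out analyses 58 stayed within 1.5 times and 10 did not. The count of members higher in mes organoids was 7 and became 13 with DESeq2, 12 without the filter, 12 with all 27 libraries in the fit, and 0 to 14 leaving out 1 library each. Members lower in oviductal than in OSE organoids numbered 0 and became 2 with DESeq2, 2 without the filter, 3 with all libraries and 0 to 3 leaving out 1 library, with 0 to 3 higher. Members higher in oviductal organoids than in tissue became 2 without the filter and 0 to 1 leaving out 1 library, those higher in OSE organoids 0 to 2, those higher in TBP clones 2 without the filter and 0 to 1 leaving out 1 library, and those lower in tumors than in clones 0 with DESeq2 and 0 to 1 leaving out 1 library. The interaction gave 0 to 3 positive and 2 to 6 negative calls leaving out 1 library. The cause of these shifts was not tested, apart from the smaller number of libraries or larger number of genes that define the setting.

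A value that turned over was Col4a1 in OSE organoids against tissue (-4.55 without OSE organoids 1, range -4.55 to 1.19 leaving out 1 library). Another was Col4a1 in tumors against the oviduct, whose value lay near 0 throughout (0.035 without the filter, 0.16 without oviduct tissue 2, 0.10 without Tumor 2 and 0.02 without Tumor 5, range -0.22 to 0.16). In the interaction without OSE organoids 2, Col3a1 (1.60, range -7.52 to 1.60) and Col6a2 (2.66, range -4.60 to 2.66) turned over too. OSE organoids 1 had 0 counts of both, so the sizes 1.60 and 2.66 are not estimates. Leaving out 1 library kept 10 to 14 higher and 5 to 6 lower in oviduct against OSE tissue, 19 to 22 lower in oviductal and 12 to 20 lower in OSE organoids, 18 to 22 higher in tumors against clones, and 13 to 15 higher and 4 to 5 lower in tumors against the oviduct.

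With the replicate number as a block, 14 members were higher and 6 lower in oviduct against OSE tissue, 1 higher and 22 lower in oviductal organoids against tissue, and 0 and 0 in TBP clones. In the tumor organoids the block was the pair (T1-mes with T2-epi, which the study pictures in a single mouse, and T3-mes with T4-epi) and gave 10 higher and 0 lower in mes, with paired libraries correlated at r = 0.099 after the group means were taken out. Same-numbered libraries deviated together weakly (r = 0.03 to 0.12 over 7833 genes), and 9 of 9 correlated best with their own number. The labels do not say what the numbers mark, so they were not taken to pair samples in the main fits. Whether same-numbered libraries share an origin was not tested. RLE factors moved the median over all genes in tumors against clones from 0.16 to 0.29 on the log2 scale. Depth limits the low members most, above all in TBP clone 1.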
